A study of Drosophila melanogaster with 6 samples.

Results

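The elements described here are the LTR retrotransposons of the Gypsy superfamily that remain after ZAM, Idefix, Tirant, gypsy and other named elements are left out, several of them well known from follicle cells of the fly ovary. Members were taken by name from the annotation: every Gypsy-superfamily feature whose element name held none of 12 listed names. The rule used names only and no measured value. It kept 2984 of 123041 annotated features, each of them 1 genomic copy or fragment of an element. Summed by element, with internal parts and LTRs apart, the copies gave 50 entries of 31 elements: 23 internal parts, 22 LTRs and 5 entries that the annotation does not divide.

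Gypsy-superfamily elements are copied through an RNA that is reverse transcribed and inserted elsewhere in the genome. Each full element has a long terminal repeat (LTR) at either end, which carries its promoter and polyadenylation signal, around an internal part that encodes its structural and replication proteins. In follicle cells of the fly ovary, Piwi loaded with piRNAs represses such elements in the nucleus, and Asterix (Gtsf1), a small zinc finger protein, is needed with Piwi for that repression. Members of the mdg1 group (mdg1, DM412, blood and the Stalker elements) and of the mdg3 group (mdg3, blastopia and micropia) are classical dispersed repeats of the fly genome.

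The samples were 6 eCLIP libraries from OSS cells, a Drosophila melanogaster line of ovarian somatic sheath cells. In eCLIP, RNA is crosslinked to protein by ultraviolet light and trimmed by RNase, the protein is pulled down and the RNA that comes with it is sequenced. All cells, including those of every input, were transiently transfected with Asterix fused to a TEV site and a Strep tag in the vector pAWG, whose actin promoter drives expression in most fly cells. Crosslinked cells received 400 mJ of light at 254 nm and gave 2 input libraries and 2 libraries from MagStrep XT beads, called IP here. Cells without crosslinking gave 1 input and 1 IP library, so their values have no replicate check. No library from cells without the tagged protein was analysed here, so RNA held by the beads and RNA held by the protein without crosslinking cannot be told apart.

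Inputs held between 12391586 and 13658478 annotated reads and IP libraries between 2018241 and 2921685, so 3 reads correspond to at most 0.242 CPM (counts per 1000000 annotated reads) in an input and to as much as 1.49 CPM in an IP library. Ribosomal RNA took 85.6% to 87.0% of the annotated reads of the inputs, and in the IP 60.1% without crosslinking and 68.0% and 69.5% with it. In the inputs, all 5 marker genes of the follicle cell lineage were above 3 reads in each library and 0 of the 5 germline markers with a feature in the tables were (osk has none). Nothing in the labels says that the 2 crosslinked libraries of a group came from separate cultures, so their spread may be technical. Element copies share reads: a read that matches several copies was divided between them in the deposited tables, which makes most values fractional. The tables also list piRNA clusters as features of their own, and how a read over an element inside a cluster was assigned is not given in the sources used here.

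The members were rare in the cells' RNA and were read more often in the pull-down. Their summed level was 206 CPM without and 207 and 227 CPM with crosslinking in the inputs, and 2761 CPM without and 1126 and 857 CPM with crosslinking in the IP. All 3 IP libraries lay above all 3 inputs, and the single highest was the IP without crosslinking. The crosslinked means were 217 ± 14.2 CPM in the inputs and 992 ± 190 CPM in the IP libraries (SD, n = 2 each), a ratio of 4.58 on annotated reads. An exact two-sided permutation test gave p = 0.33, the smallest that 2 libraries against 2 allow. On totals without ribosomal reads the log2 ratio of the crosslinked means was 1.06. Without crosslinking the IP over input ratio was 13.4. Among all reads of LTR elements, members took 2.2% to 2.5% in the inputs, 7.64% and 5.30% in the crosslinked IP libraries and 22.4% in the non-crosslinked IP.

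The mdg1 group had the highest IP to input ratio of the 4 groups. Its 11 entries summed to 38.0 CPM without and 37.3 and 42.1 CPM with crosslinking in the inputs, and 1589 CPM without and 430 and 327 CPM with crosslinking in the IP. The IP to input ratio was therefore 9.54 with crosslinking and 41.9 without. Its share of the members' reads stood at 18.0% to 18.6% in the inputs, at 38.2% and 38.1% in the crosslinked IP libraries and at 57.6% in the non-crosslinked IP. The mdg3 group began at a like input level, 41.4 ± 4.57 CPM (SD, n = 2), and reached 74.6 ± 3.87 CPM in the crosslinked IP libraries and 105 CPM in the non-crosslinked IP. The Invader entries went from 75.2 ± 4.42 to 167 ± 19.7 CPM with crosslinking and stood at 267 CPM in the non-crosslinked IP. The remaining members, among them CIRCE, Chouto, HMSBEAGLE and NOMAD, went from 60.5 ± 1.86 to 372 ± 93.7 CPM, against 800.1 CPM in the non-crosslinked IP. For comparison, the Gypsy-superfamily elements left out by the rule had a crosslinked ratio of 1.87 and a non-crosslinked ratio of 1.47, and Copia and Pao elements had ratios of 1.18 and 0.490. The piRNA cluster features had a crosslinked ratio of 8.07 and a non-crosslinked ratio of 8.29. These ratios of sums were not tested against each other.

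**Figure D1:**
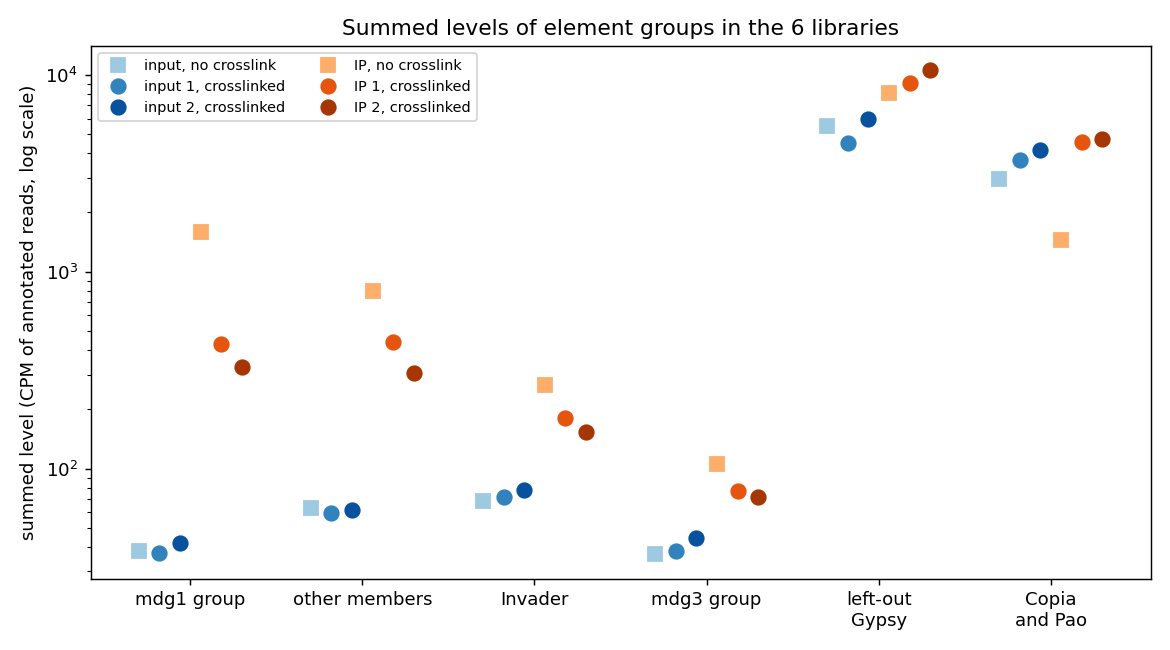
Summed level in CPM of annotated reads (log axis) of the 4 groups of members and of 2 comparison sets; each point is 1 library, squares without and circles with crosslinking, blue inputs and orange IP. The mdg1 group shows the widest gap, from 37.3 to 42.1 CPM in the inputs to 1589 CPM in the non-crosslinked IP, and in the Copia and Pao set the non-crosslinked IP is the lowest point.

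The order of the libraries was the same in most single entries. Both crosslinked IP libraries lay above both crosslinked inputs in 42 of 50 entries. Of the 44 entries with at least 15 reads over the 6 libraries, 40 had that order, against 42.2% of all 27769 features and elements with as many reads. The non-crosslinked IP lay above both crosslinked IP libraries in 29 of the 44 entries (background 37.6%) and below both in 7 (background 35.3%). It lay above its own input in 40 of the 44 (background 55.8%). CPM is a share of a library, and the share of ribosomal RNA was lower in the IP libraries. With ribosomal reads left out of the totals, 24 of the 44 entries had both crosslinked IP libraries above both inputs (background 23.4%) and 8 had them below (background 52.6%). On that total the non-crosslinked IP was above both crosslinked IP libraries in 23 entries (background 27.8%) and below both in 14 (background 44.7%).

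**Figure D2:**
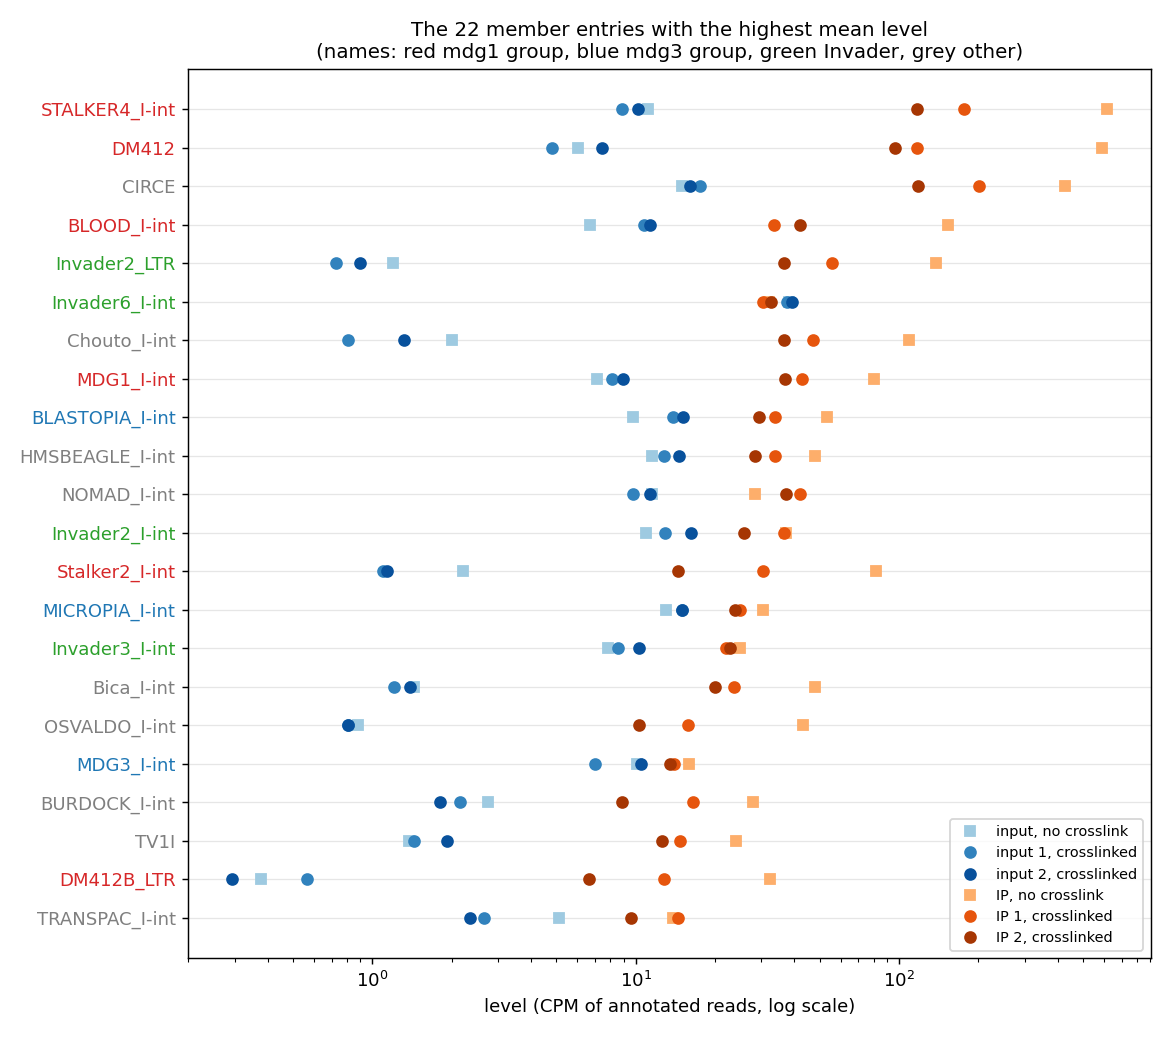
Level in CPM of annotated reads (log axis) of the 22 member entries with the highest mean over the 6 libraries; each point is 1 library, squares without and circles with crosslinking, blue inputs and orange IP. In DM412 and STALKER4_I-int the non-crosslinked IP stands apart at 588 and 615 CPM, whereas in Invader6_I-int all 6 libraries lie between 30.5 and 39.2 CPM.

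Crosslinked IP and crosslinked input were then compared entry by entry in a fit over the whole table, which held 13081 features and elements after a filter on low counts. The fit was edgeR's quasi-likelihood test, with p-values adjusted by Benjamini and Hochberg's method over all of them, a threshold of 0.05 and TMM factors, which set the bulk of features near 0. The log2 fold changes are therefore relative to that bulk, whose median was -0.08. Scaled by library size alone the same median would be 0.76, so a CPM ratio above reads higher than the fold change of the same entry. Of the 50 member entries, 37 passed the filter. The other 13, of which 11 were LTRs, had at most 9 reads in any crosslinked library. An entry could pass through its IP libraries alone, so the counts that follow describe the 37 and give no support beyond that. Among the 37, 20 rose and 1 fell, while 28.7% of all tested features rose and 27.9% fell. The members' median was 1.05, with 11 of 22 internal parts, 6 of 11 LTRs and 3 of 4 undivided entries among those that rose. The left-out Gypsy elements had 25 rises and 2 falls among 43 tested entries with a median of 1.13. Copia and Pao entries had 6 rises and 5 falls among 19, with a median of -0.28.

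**Figure D3:**
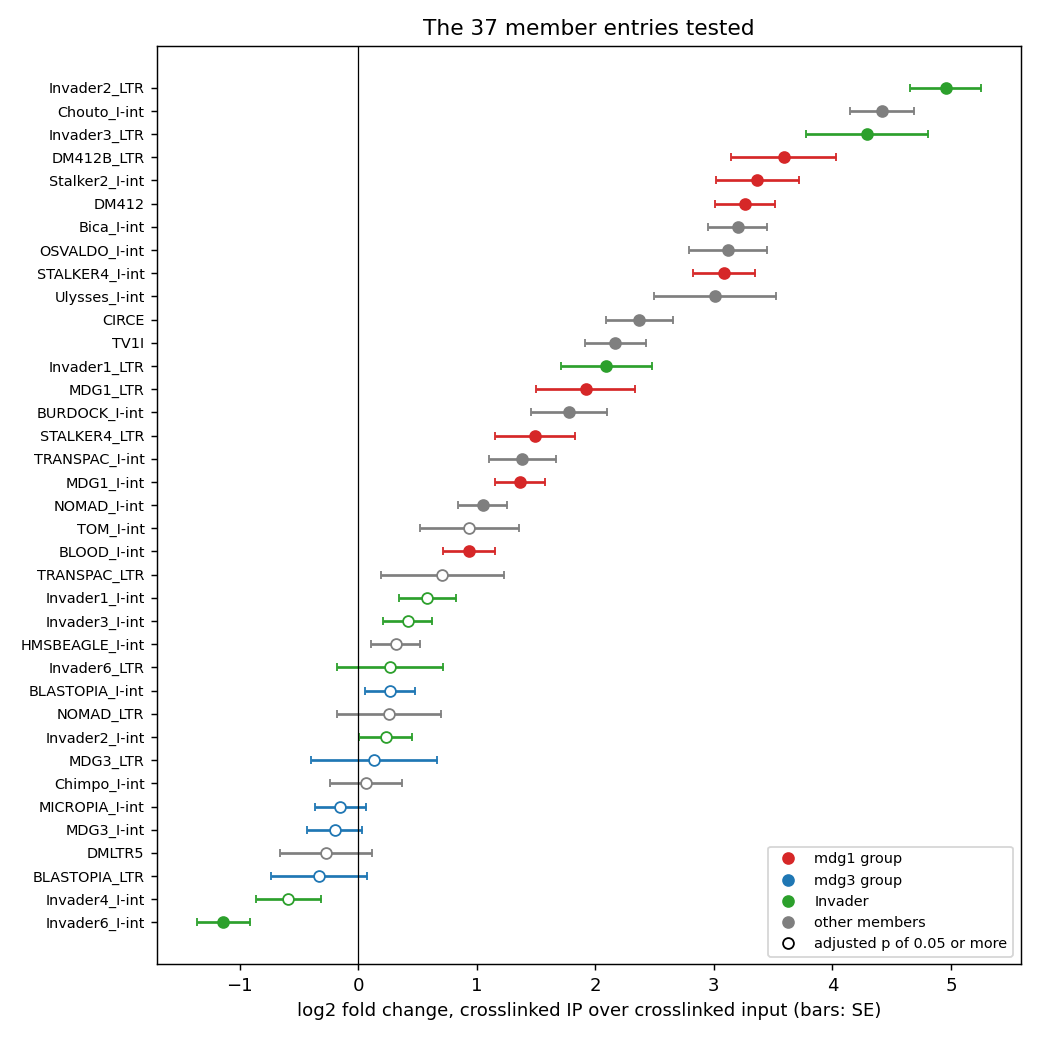
Log2 fold change of crosslinked IP over crosslinked input with its standard error for the 37 member entries tested; filled points passed an adjusted p of 0.05 and colours mark the groups. All 8 mdg1 group entries lie to the right of 0 and are filled, the 5 mdg3 group entries are open around 0, and Invader entries span the whole range from -1.14 to 4.95.

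All 8 tested entries of the mdg1 group rose, with a median log2 fold change of 2.5. The internal part of Stalker4 (STALKER4_I-int) had the highest mean CPM over the 6 libraries of any member, largely through the non-crosslinked IP, at 11.1 CPM without and 8.84 and 10.2 CPM with crosslinking in the inputs, and 615 CPM without and 177 and 117 CPM with crosslinking in the IP. The 3 inputs were close together and far below every IP library. CIRCE was higher than STALKER4_I-int in every library but the non-crosslinked IP. The log2 fold change of STALKER4_I-int was 3.09 with an SE of 0.26 (edgeR's quasi-likelihood test, adjusted p = 5.0e-07).

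DM412 had nearly the same profile. It was at 6.05 CPM without and 4.80 and 7.44 CPM with crosslinking in the inputs, and 588 CPM without and 117 and 96.6 CPM with crosslinking in the IP. Input and IP ranges did not overlap, and the IP without crosslinking was again the highest library. The log2 fold change was 3.26 with an SE of 0.25 (edgeR's quasi-likelihood test, adjusted p = 1.9e-07). The LTR entry DM412B_LTR, with fewer reads, was at 0.377 CPM without and 0.565 and 0.293 CPM with crosslinking in the inputs, and 32.4 CPM without and 12.8 and 6.67 CPM with crosslinking in the IP. It rose by 3.59 with an SE of 0.44 on the log2 scale (edgeR's quasi-likelihood test, adjusted p = 1.5e-05) and had the same order of IP libraries.

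Blood and mdg1 themselves rose less. BLOOD_I-int, the internal part of blood, was at 6.72 CPM without and 10.7 and 11.3 CPM with crosslinking in the inputs, and 154 CPM without and 33.4 and 42.1 CPM with crosslinking in the IP. Its non-crosslinked libraries were the lowest input and the highest IP. The log2 fold change with crosslinking was 0.93 with an SE of 0.22 (edgeR's quasi-likelihood test, adjusted p = 0.0026). MDG1_I-int was at 7.13 CPM without and 8.14 and 8.97 CPM with crosslinking in the inputs, and 80.2 CPM without and 42.9 and 36.7 CPM with crosslinking in the IP. It rose by 1.36 with an SE of 0.21 (edgeR's quasi-likelihood test, adjusted p = 9.5e-05), with no overlap between inputs and IP. The other 3 tested entries of the group, Stalker2_I-int, MDG1_LTR and STALKER4_LTR, rose by 3.37, 1.92 and 1.49.

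All 8 mdg1 group entries were also called higher when libraries were scaled by size alone, by size without ribosomal RNA or by DESeq2's size factors, and with each crosslinked library left out. These settings called between 24.5% and 44.5% of all features higher where all 4 crosslinked libraries were used. DESeq2's Wald test called 6 of the 8, and 19.1% of all features. Some of the 8 could pass the filter through their IP libraries alone, so these repeats are a description. With at least 10 counts in every crosslinked library, 6 entries of the group were tested and 6 called higher, with 1024 of 3241 features. When the control was made of all inputs plus the non-crosslinked IP, none of 10 tested mdg1 group entries was called, nor any other member. Only 2 of 15377 features in the whole table were called in that comparison, where 1365 had an unadjusted p under 0.05 in edgeR's quasi-likelihood test, 2 of them members.

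In the mdg3 group, 0 of 5 tested entries passed the threshold in edgeR's quasi-likelihood test, and their median was -0.15. DESeq2's Wald test called 0 of the 5 as well, and scaling by library size alone called 2 higher, where it called 44.5% of all features higher. BLASTOPIA_I-int, the internal part of blastopia, was at 9.73 CPM without and 13.9 and 15.1 CPM with crosslinking in the inputs, and 53.5 CPM without and 33.8 and 29.4 CPM with crosslinking in the IP. Its CPM was higher in every IP library than in any input, yet by about as much as that of the bulk of features: the log2 fold change was 0.27 with an SE of 0.21 (edgeR's quasi-likelihood test, adjusted p = 0.28), and it turned to -0.01 with library size without ribosomal RNA. The internal parts of micropia and mdg3 had log2 fold changes of -0.15 and -0.20, both with adjusted p-values over the threshold.

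Among the Invader elements 3 LTRs rose, those of Invader1, Invader2 and Invader3, no internal part rose and 1 fell, with 9 entries tested. Invader2_LTR was at 1.20 CPM without and 0.726 and 0.897 CPM with crosslinking in the inputs, and 138 CPM without and 55.7 and 36.6 CPM with crosslinking in the IP. No member had a larger log2 fold change: it rose by 4.95 with an SE of 0.30 (edgeR's quasi-likelihood test, adjusted p = 2.5e-08), from 9 and 12.3 reads in the crosslinked inputs to 123 and 107 reads in the IP libraries. Its internal part, Invader2_I-int, was at 10.9 CPM without and 13 and 16.2 CPM with crosslinking in the inputs, and 37.3 CPM without and 36.6 and 25.7 CPM with crosslinking in the IP. Relative to the bulk that was a log2 fold change of 0.23 with an SE of 0.22 (edgeR's quasi-likelihood test, adjusted p = 0.38), and the sign turned to -0.05 with library size without ribosomal RNA.

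Invader3_LTR rested on few reads: 0 without and 0.833 and 3 with crosslinking in the inputs, and 6 without and 10 and 20 with crosslinking in the IP. Over the crosslinked libraries its CPM ratio, with reads rounded to whole numbers, was 38.1, with an exact conditional binomial 95% interval from 13.4 to 149 that covers counting error only. The fit called it higher (edgeR's quasi-likelihood test, adjusted p = 1.1e-05). Invader6_I-int was the 1 member that fell. It was at 38.3 CPM without and 37.4 and 39.2 CPM with crosslinking in the inputs, and 32.1 CPM without and 30.5 and 32.6 CPM with crosslinking in the IP, the highest input level of any member. Every IP library lay below every input, and the log2 fold change was -1.14 with an SE of 0.23 (edgeR's quasi-likelihood test, adjusted p = 8.2e-04). On library size alone this fall was not called.

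Among the remaining members, 9 of 15 tested entries rose and none fell, with a median of 1.38. CIRCE, an undivided entry, was at 15.0 CPM without and 17.6 and 16.1 CPM with crosslinking in the inputs, and 427 CPM without and 201 and 118 CPM with crosslinking in the IP. It rose by 2.37 with an SE of 0.28 (edgeR's quasi-likelihood test, adjusted p = 1.0e-05), and its IP libraries spread more widely than its inputs. The internal part of Chouto (Chouto_I-int) was at 2.01 CPM without and 0.807 and 1.32 CPM with crosslinking in the inputs, and 109 CPM without and 47.3 and 36.6 CPM with crosslinking in the IP. It rose by 4.42 with an SE of 0.27 (edgeR's quasi-likelihood test, adjusted p = 2.5e-08), second to Invader2_LTR among the members.

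Among the 12 entries with the highest mean CPM, only NOMAD_I-int had the non-crosslinked IP below both crosslinked IP libraries. Nomad, also known as opus, stood at 11.5 CPM without and 9.76 and 11.3 CPM with crosslinking in the inputs, and 28.3 CPM without and 42.2 and 37.1 CPM with crosslinking in the IP. Both crosslinked IP libraries exceeded the non-crosslinked IP. In the rest of the 12 entries with the highest mean the non-crosslinked IP was the highest library of the IP, except in Invader6_I-int, where it lay between the crosslinked ones. NOMAD_I-int rose by 1.05 with an SE of 0.21 (edgeR's quasi-likelihood test, adjusted p = 7.5e-04). HMSBEAGLE_I-int was at 11.6 CPM without and 12.8 and 14.7 CPM with crosslinking in the inputs, and 48.1 CPM without and 33.7 and 28.3 CPM with crosslinking in the IP. Its log2 fold change of 0.32, with an SE of 0.21, did not pass (edgeR's quasi-likelihood test, adjusted p = 0.21). The other 6 entries that rose in this set, among them OSVALDO_I-int and Ulysses_I-int, whose elements were first described in other Drosophila species, had log2 fold changes from 1.38 to 3.20.

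Whether crosslinking changed the recovery of members was asked by a test of the difference itself: IP over input with crosslinking minus IP over input without, over all 6 libraries. The single non-crosslinked libraries are assumed there to vary like the crosslinked ones. Of 42 member entries tested, 0 were higher with crosslinking and 2 were lower at an adjusted p under 0.05, against 1.95% higher and 0.998% lower among all 19329 features tested. At an unadjusted p under 0.05, 11 of the 42 and 16.6% of all features differed in edgeR's quasi-likelihood test. The members' median was -0.26, where the median of all features was 0.24, and 31 of the 42 lay below the latter. The left-out Gypsy elements had the same median of -0.26, with 0 higher and 4 lower among 49 tested entries. Copia and Pao entries had a median of 0.18, with 2 higher and 2 lower among 22. The fit has little power for a difference of this kind: of 200 features simulated with a 4-fold difference among 19329, it recovered 8.5%.

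Both called entries belong to the mdg1 group. BLOOD_I-int had a difference of -2.47 on the log2 scale with an SE of 0.42 (edgeR's quasi-likelihood test, adjusted p = 0.0012), and DM412 one of -2.22 with an SE of 0.47 (adjusted p = 0.0089). In both the IP over input ratio of these libraries was lower with crosslinking than without. The spread of the non-crosslinked arm, 1 input and 1 IP library, was not measured. Next in size among well-covered members was STALKER4_I-int at -1.59 with an SE of 0.47, which did not pass (adjusted p = 0.065). The mdg1 group's median was -1.31 over 10 tested entries, of which 2 were positive. Without the first crosslinked IP library 8 members were called lower, with 3.25% of all features, and without the second 6, with 2.02%. BLOOD_I-int and DM412 were called in each fit that left out 1 crosslinked library, and under the 2 other scalings run for this result, library size with and without ribosomal RNA.

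The largest positive differences came from entries with hardly any reads. Invader5_I-int was at 6.76 (adjusted p = 0.26 in edgeR's quasi-likelihood test) and had 3 reads in the input without crosslinking, 2 in either input with it, 0.0909 in the IP without it and 6 and 3 in the IP with it. TRANSPAC_LTR was at 5.30 (adjusted p = 0.38) with at most 6 reads in any library and none in the non-crosslinked IP. Stalker2_LTR was at 1.57 (adjusted p = 0.63) with at most 5 reads. On the negative side Invader3_LTR, described above, was at -2.34 (adjusted p = 0.58). At this depth no difference was detectable for these 4.

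The 2 parts of an element were compared within each library, where scaling cancels, as the share of its reads on the LTR. The test was the interaction of part with pull-down over the 55 LTR elements of all superfamilies that have both parts and passed a filter on low counts. Among 18 tested members the log2 fold change of the LTR was above that of the internal part in 5 and below it in 2, against 20% and 12.7% of the 55 elements. All 5 were Invader elements. Among the left-out Gypsy elements the LTR was called above in 2 and below in 5 of 25. Among Copia and Pao elements it was called above in 4 and below in 0 of 12. For Invader2 the LTR held 9.89% of the element's reads without and 5.30% and 5.25% with crosslinking in the inputs, and 78.8% without and 60.3% and 58.8% with crosslinking in the IP. Input and IP shares did not overlap, and the difference of log2 fold changes, LTR minus internal part, was 4.72 with an SE of 0.26 (edgeR's quasi-likelihood test, adjusted p = 4.0e-33). This p-value rests on 2 libraries against 2 and a spread pooled over the 55 elements, so its size does not measure replicate spread. With each crosslinked library left out the difference for Invader2 ran from 4.676 to 4.765. Both parts are sums over copies that differed among themselves. Invader2_LTR copy 98 held at most 0.694% of that entry's reads in an input, and 41.5% without and 30.9% and 38.3% with crosslinking in the IP. Invader2_I-int copies 41 and 157, picked after their values were seen, had log2 fold changes of 3.03 and -2.48 in the fit on single copies.

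For Invader1, Invader3, Invader4 and Invader6 the differences were 1.5, 3.85, 3.99 and 1.39, with adjusted p-values from 3.9e-07 to 0.030. The Invader4 call rested on an LTR with 2 and 0 reads in the crosslinked inputs and 2 and 7 in the IP libraries. Invader6_LTR was itself not called, with a log2 fold change of 0.27, whereas Invader6_I-int fell by 1.14. The LTR share of Invader6 was 5.11% and 3.94% in the crosslinked inputs and 17.2% and 5.93% in the crosslinked IP libraries. In the other direction the LTR share of Stalker4 was 13.8% without and 14.6% and 10.9% with crosslinking in the inputs, and 3.11% without and 4.39% and 4.98% with crosslinking in the IP. Its difference was -1.57 (edgeR's quasi-likelihood test, adjusted p = 1.4e-04), and that of Chouto, whose LTR had at most 4 reads in a library, was -3.30 (adjusted p = 0.030). Invader2 alone kept its call with each crosslinked library left out. Without the first crosslinked IP library Invader2 and Invader3 were called, and without the second only Invader2. Neither input library could be left out without losing 1 of the 7 calls: Chouto was lost without the first (adjusted p = 0.56), and Invader1 without the second (adjusted p = 0.17).

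**Figure D4:**
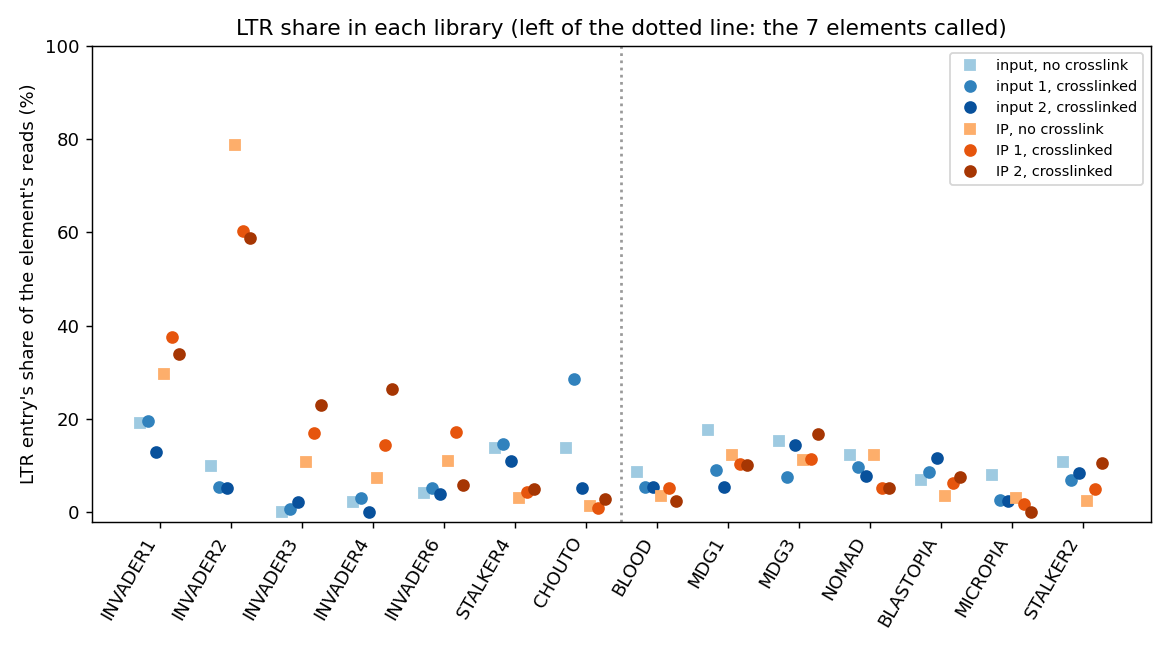
Share of an element's reads that lie on its LTR entry, in percent, for 14 elements with both parts; each point is 1 library, squares without and circles with crosslinking, blue inputs and orange IP. In Invader2 the share goes from at most 9.89% in the inputs to at least 58.8% in the IP libraries, and in Stalker4 it falls from at least 10.9% to at most 4.98%.

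The copies of an element did not contribute evenly, and in several elements the copies read in the IP were not those read in the input. The fit on single copies tested 13471 features, of which 29.6% rose and 26% fell. Of the 2984 member copies, 96 passed its filter on low counts, from 20 entries, and 64 of these rose and 14 fell. A copy could pass through its IP libraries alone, and then had to differ, so these counts are a description: none of the 96 had 10 reads in all 4 crosslinked libraries. Of the copies called higher, 28 belonged to DM412, 18 to STALKER4_I-int and 5 to Invader2_LTR, and of those called lower 7 belonged to Invader6_I-int. Copies that share sequence share reads and are not separate observations.

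By mean CPM over the 6 libraries, a mean that the IP libraries largely set, CIRCE copy 50 was the highest member copy. It had 1.68 reads without and 4.72 and 1.43 with crosslinking in the inputs, and 752.5 reads without and 321 and 244 with crosslinking in the IP. That was 0.895%, 2.17% and 0.649% of all CIRCE reads in the inputs, and 87.4%, 72.4% and 70.7% in the IP libraries. The crosslinked CPM ratio was 478, with an exact 95% counting interval from 218 to 1309, from reads summed over the 2 libraries of a group and rounded to whole numbers. CIRCE copy 73, chosen here after its values were seen, did the opposite: it held 42.3%, 29.1% and 31.9% of CIRCE reads in the inputs and 0.811%, 1.71% and 4.50% in the IP libraries. It fell by 0.92 on the log2 scale (edgeR's quasi-likelihood test, adjusted p = 0.020). Without copy 50, CIRCE as a whole had a log2 fold change of 0.56 and was no longer called (adjusted p = 0.068).

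The next 4 copies by the same mean were also nearly unread in the inputs, which the choice by that mean favours: Invader6_I-int copy 39, by contrast, was at 7.60 CPM without and 4.46 and 5.53 CPM with crosslinking in the inputs. Invader2_LTR copy 98 had no whole read in any input, 116 reads in the IP without and 38 and 41 reads with crosslinking, which is at least 64.5-fold above 3 reads in the shallower crosslinked input. STALKER4_I-int copy 139 had under 1 read in each input, 104 reads in the IP without and 48.5 and 32.1 with crosslinking. Chouto_I-int copy 8 had at most 1.11 reads in an input, 83.7 in the IP without and 40.5 and 27.2 with crosslinking. DM412 copy 150 had 1 read without and 0 and 2 with crosslinking in the inputs, and 66 without and 40 and 29 with crosslinking in the IP. Crosslinked CPM ratios for these last 3, from summed reads rounded to 1, 1 and 2 in the inputs, were 411, 345 and 175, with counting intervals whose lower ends were 71.8, 59.9 and 46.7.

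In some entries with smaller totals the leading copy differed between input and IP; the next 3 were picked after their values were seen. OSVALDO_I-int copy 46 held no read in any input and in the IP 90.4% of its entry's reads without and 85.7% and 63.3% with crosslinking. Without copy 46 that entry had a log2 fold change of 1.10 and was still called (edgeR's quasi-likelihood test, adjusted p = 0.043). Bica_I-int copy 63 held none in the inputs and 42.3%, 36.4% and 25.6% in the IP libraries, and without it Bica_I-int still rose by 2.67 (adjusted p = 2.0e-06 in the same test). MICROPIA_I-int copy 148 fell from 50.3%, 38.3% and 35.5% of its entry in the inputs to 12.3%, 7.89% and 18.7% in the IP libraries. In contrast, no copy of BLOOD_I-int held more than 4.55% of that entry's reads in any library among its 3 most abundant copies.

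**Figure D5:**
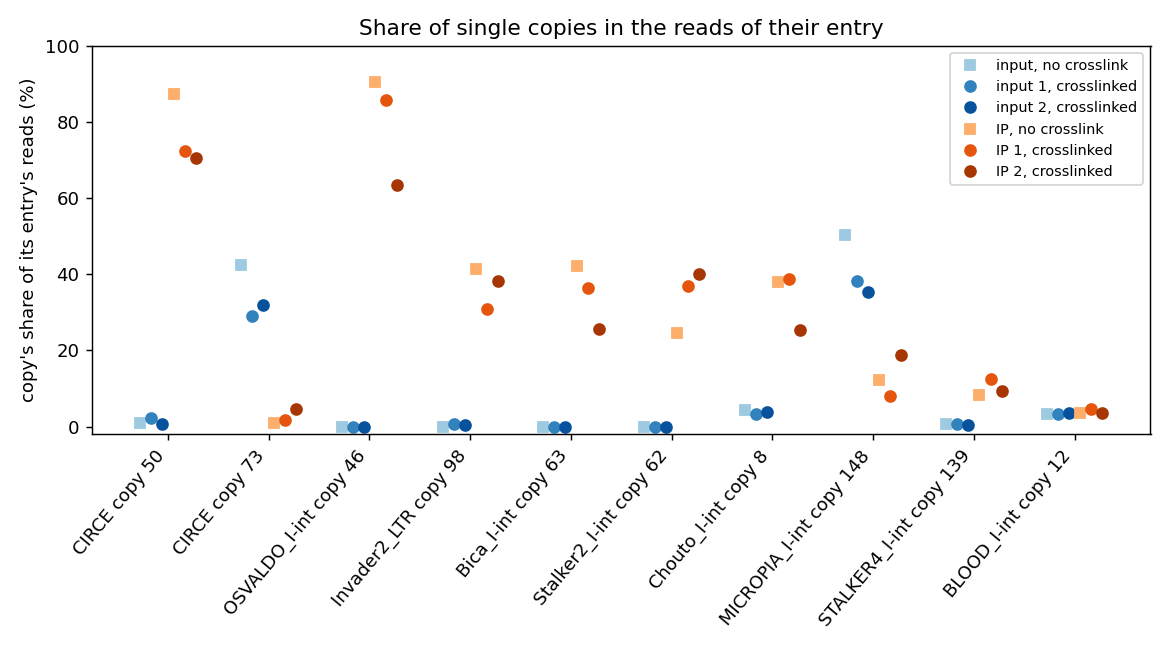
Share of an entry's reads that lie on a single copy, in percent, for 10 copies of 9 entries; each point is 1 library, squares without and circles with crosslinking, blue inputs and orange IP. CIRCE copy 50 goes from at most 2.17% in the inputs to at least 70.7% in the IP libraries and copy 73 the other way, while the BLOOD_I-int copy stays between 3.28% and 4.55%.

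To set this against the spread between replicates, the overlap of copy composition (the sum over copies of the smaller of 2 shares) was computed for the 13 entries with at least 30 reads in every library. In 11 of the 13 the overlap between a crosslinked IP and a crosslinked input was below that of both replicate pairs for all 4 pairings. MDG3_I-int and Invader6_I-int were the exceptions. The 11 include entries with narrow margins. The highest IP to input overlap was 95.55% in BLOOD_I-int, 58.76% in MICROPIA_I-int and 80.07% in NOMAD_I-int. The lower replicate overlap was 95.59%, 59.97% and 81.66% in the same order. The overlap was not computed for elements other than members. CIRCE had the lowest overlap, 17.8% to 27.0% between IP and input, where the 2 inputs overlapped by 84.3% and the 2 IP libraries by 89.3%. DM412 overlapped by 57.9% to 69.8% against 88.9% and 83.7%, and MDG1_I-int by 39.0% to 48.4% against 71.2% and 72.3%. BLOOD_I-int was nearly even, with 92.0% to 95.6% between IP and input against 97.4% and 95.6%. Between the non-crosslinked IP and the crosslinked IP libraries the copies of CIRCE overlapped by 80.7% to 83.6%. Those of STALKER4_I-int overlapped by 78.3% to 80.2%. The extremes of this overlap were MDG3_I-int, at 48.99% to 50.38%, and BLOOD_I-int, at 95.49% to 98.29%. In NOMAD_I-int it was 64.18% to 64.59%, below the 71.02% to 80.07% between crosslinked IP and crosslinked input. MDG3_I-int was also below its range between IP and input. In MICROPIA_I-int, Invader6_I-int and BLOOD_I-int the ranges met, and the other entries lay above. These overlaps are given as a description, since entries with fewer reads have lower overlaps by counting alone.

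The authors' deposited table of enrichment ratios, whose formula is not given in the sources used here, lists 31256 features. Member copies make up 704 of the entries of the authors' deposited table, or 2.25%, and 9 of the 100 highest ratios belong to members. The first rank in the authors' deposited table is held by Invader2_LTR copy 97 with a ratio of 3090, and copies 94 and 92 of the same entry share a ratio of 1334. Copy 97 was almost unread in the inputs, with 0.25 reads without and 0.0625 and 0 with crosslinking. Copies 94 and 92 also had the same log2 fold change in the fit on single copies, 4.64. Chouto_I-int copy 8 stands at rank 23 of the authors' deposited table with a ratio of 620. The median ratio there is 4.79 for the member copies and 3.44 for all features.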

How the data were processed

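Groups and replicate numbers came from the sample titles. Per library, the authors deposited estimated counts per annotated feature, with reads split between features, and RPM values, which are these counts scaled to 1000000 reads of the library, as the values show. The authors also deposited a ratio per feature without a header or stated formula. The submitters' processing notes name bcl2fastq 2.19, STAR 2.5.2b, bedtools 2.29.0 and the builds mm10 and dm6, with no role or order. Duplicate removal and use of strand are not given in the sources used here, and the files used hold no coordinates of the copies. Sequences are not printed.

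Reads outside any annotation (2.15% to 3.23% of the inputs, 13.6% of the non-crosslinked IP, 8.89% and 7.87% of the crosslinked IP libraries) were left out. Copies of each transposon were summed by entry. Estimated counts were rounded and tested with edgeR 4.0.16 in R 4.3.3 (filterByExpr, TMM, quasi-likelihood F test, two-sided, adjusted over the whole table). The SE is the fold change over the square root of F. Exact permutation tests were two-sided. Intervals and the limit of 3 reads cover counting error only. Tested on simulated data, the entry fit recovered 61.0% of 200 features changed 4-fold among 13081 (3.17% of calls false), and the fit of LTR against internal part 25.0% of 20 elements among 55 (0 false).

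The members, groups and lists were chosen with earlier results of these data known. Entries named were the 12 with the highest mean CPM, the 4 largest called rises and falls, the 3 most positive and most negative crosslinking differences and the 5 highest copies; 1 fall was called. Replicate pairs differed by more than sampling noise (chi-square per degree of freedom 4.94 for the inputs and 3.84 for the IP libraries). Replicate numbers did not pair inputs with IP libraries by the rule used (correlation of deviations 0.09, with only 2 pairs). Alternatives were other scalings and filters, a block for the replicate number, 1 fit over all libraries, the non-crosslinked IP in the control, DESeq2 1.42.0, limma 3.58.1 on the deposited RPM with a pseudocount of 1, a 2-fold minimum and each crosslinked library left out. Python 3.11.15 served for the rest (scipy 1.17.1, pandas 2.3.3, matplotlib 3.10.9, numpy 2.4.6).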

Additional observations from a re-analysis of the deposited data

Results flagged for a closer look

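For 2 of 42 tested members the pull-down over input differed between cells with and without crosslinking in a test of that difference over the 6 libraries. Of all 19329 features tested, 1.95% were higher and 0.998% lower with crosslinking. Among the left-out Gypsy elements 4 of 49 were lower and 0 higher. The 2 members were BLOOD_I-int, with a difference of -2.47, and DM412, with one of -2.22 on the log2 scale. Both were lower with crosslinking, with adjusted p-values of 0.0012 and 0.0089 in edgeR's quasi-likelihood test. The non-crosslinked arm holds 1 input and 1 IP library, so its own spread was not measured.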

How the results depend on the processing

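The crosslinked comparison gave 20 rises and 1 fall among 37 members, and 28.7% of all features rose. Of the alternatives that kept every crosslinked library, all but 1 gave 14 to 29 rises. The 14 came from 24 members tested with a minimum of 10 counts per library, where 1024 of 3241 features rose. The 29 came with library size alone, where 44.5% of all features rose, and with limma on deposited RPM, where 5653 of 13081 did. When the control was all inputs plus the non-crosslinked IP, there were 0 rises and 0 falls, and the sign turned for STALKER4_I-int (-0.039), DM412 (-0.38) and BLOOD_I-int (-0.33). There were 0 falls with library size alone and with limma on deposited RPM, and 2 with library size without rRNA, with a minimum of 10 counts per library and with the highest copy of each entry left out, an alternative chosen after seeing the data. Calls over the whole table were higher in 50.7% of cases, 85.2% with library size alone, 34.7% without rRNA, 68.0% with DESeq2's Wald test and 79.5% with limma. With a crosslinked library left out, the members' median ran from 1.06 to 1.55 and that of all features from -0.061 to 0.019. BLASTOPIA_I-int turned to -0.0054 with at least 10 counts and without rRNA (-0.0054) and to -0.034 without its highest copy. Invader2_I-int turned to -0.047 without rRNA, -0.043 with at least 10 counts, -0.0066 with no filter, -0.14 without its highest copy and ranged from -0.0042 to 0.55 with a crosslinked library left out, being negative without the first IP library. With the replicate number as a block there were 22 rises and 1 fall, and 3849 of 13081 features rose.

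Against 64 rises and 14 falls among single copies, library size alone gave 1 fall, leaving out a library 9 to 14 falls, and a minimum of 10 counts left 0 member copies to test, so 0 and 0. Against 2 lower crosslinking differences among 42 members, with 0.998% of all features, library size alone gave 4, with 1.83% of all features. A minimum of 10 counts gave 8 among 24 members tested, with 10.6% of all 2446 features. With a crosslinked library left out, the members' median ran from -0.98 to -0.21 and that of all features from -0.17 to 0.30. For LTR against internal part, 5 members were higher and 2 lower, with 20% and 12.7% of all 55 elements. A minimum of 10 counts left 1 member and gave 0 higher and 1 lower. Fewer members were called with any 1 crosslinked library left out. The sums over groups rest on 2 libraries against 2, and LTR entries of few reads limit what depth can show.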
